A study of Mus musculus with 9 samples.

Results

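The type I interferon response genes were examined as a group of 40 listed genes, named for their known induction by interferon alpha and beta. The list was chosen with earlier results of these data known. A listed gene was taken where the platform annotation gave it a probe set with its symbol alone, and where there were several, the one that was brightest on average over the 9 arrays stands for the gene. This left 33 of the 40 genes, among 12393 genes measured in all. Ddx58, Oas1g, Samd9l, Ifi44 and Xaf1 had no probe set under their symbol, and Isg15 and Ifi203 had only probe sets shared with another gene, so these 7 genes are not analysed here.

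Cells exposed to type I interferon signal through the receptor pair Ifnar1 and Ifnar2 and the kinases Jak1 and Tyk2 to a complex of phosphorylated STAT proteins and Irf9, which binds short GAAA-containing elements in promoters. The genes switched on in this way encode sensors of viral nucleic acid, enzymes that degrade or edit RNA, and proteins that block translation, entry or budding of viruses. In regulatory T (Treg) cells, the Foxp3-dependent CD4+ T cells that restrain immune responses, interferon signalling is known to alter suppressive function. CBP and p300 are related acetyltransferases of histones and other proteins, and both are recruited as coactivators by STAT and IRF proteins.

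RNA was taken from CD4+CD25+ cells that had been separated with magnets from 3 groups of C57Bl/6 mice, with 3 independent samples and 1 array for each. The groups were fl-CBP/Foxp3cre (CBP-deleted), fl-p300/Foxp3cre (p300-deleted) and Foxp3cre control, which the sample names call WT. The Cre recombinase is driven from Foxp3, so deletion is limited to cells that have expressed Foxp3, whereas CD25 is also carried by activated conventional T cells. The age of the mice, and whether animals were pooled, is not given in the sources used here. All values are log2 probe set levels, and the number of arrays limits their precision.

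The label checks came out unevenly. Il2ra, the gene of CD25, averaged 9.09 in CBP-deleted, 9.29 in p300-deleted and 9.05 in control cells. Foxp3 read 2.73 to 2.97 in CBP-deleted and 2.58 to 3.19 in p300-deleted cells, against 9.48 to 9.75 in control cells. If the control mice do not carry the Foxp3cre allele, an effect of that allele cannot be told apart from an effect of either deletion in any value below. Crebbp, the gene of CBP, read 7.35, 7.11 and 7.13 in CBP-deleted cells against 7.56, 7.67 and 7.36 in control cells (log2 difference -0.33, limma adjusted p = 0.123). Which exon was removed is not stated in the labels, and a Crebbp probe set that lies elsewhere does not read the deletion. Ep300, the gene of p300, is not among these checks, so the deletion of p300 was not checked here. Correlations over all genes, with 1 probe set for each, were 0.990 to 0.997 between arrays of a group and 0.987 to 0.994 between groups.

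In CBP-deleted cells 5 of the 33 interferon response genes rose against the control and 0 fell at an adjusted p under 0.05 (limma, Benjamini-Hochberg over all genes). These were Oasl2, Oas2, Ifit1, Ifit3 and Rtp4, with increases of 1.63-fold to 2.41-fold. The share of 15.2% stands beside 4.93% of all genes called in that comparison (2.14% higher and 2.79% lower). In p300-deleted cells 2 of the 33 rose and 0 fell, Oasl2 by 2.12-fold and Ifit3 by 1.87-fold, a share of 6.06% beside 4.06% of all genes called (2.02% higher and 2.04% lower). Both comparisons use the same 3 control arrays and are therefore not independent of each other. In bulk RNA, a larger share of responding cells and more RNA per cell cannot be told apart.

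Across the whole group the shifts were small. The median log2 difference was 0.30 for CBP-deleted against control cells (range -0.02 to 1.27), with 30 of 33 genes above 0, whereas the median of all 12393 genes was -0.03 and 43.4% of them lay above 0. For p300-deleted against control cells the median was 0.22 (range -0.21 to 1.09), again with 30 of 33 above 0, beside -0.02 for all genes. At an unadjusted p under 0.05, 17 of the 33 genes passed in CBP-deleted cells (51.5%, against 20.4% of all genes) and 11 in p300-deleted cells (33.3%, against 18.6%). All 3 CBP-deleted arrays lay above all 3 control arrays for 16 of the 33 genes, an arrangement found for 10% of all genes, and below them for 0, beside 14.5% of all genes. All 3 p300-deleted arrays lay above the controls for 8 genes, beside 8.76% of all genes, and below them for 0, beside 11.5% of all genes.

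**Figure D1:**
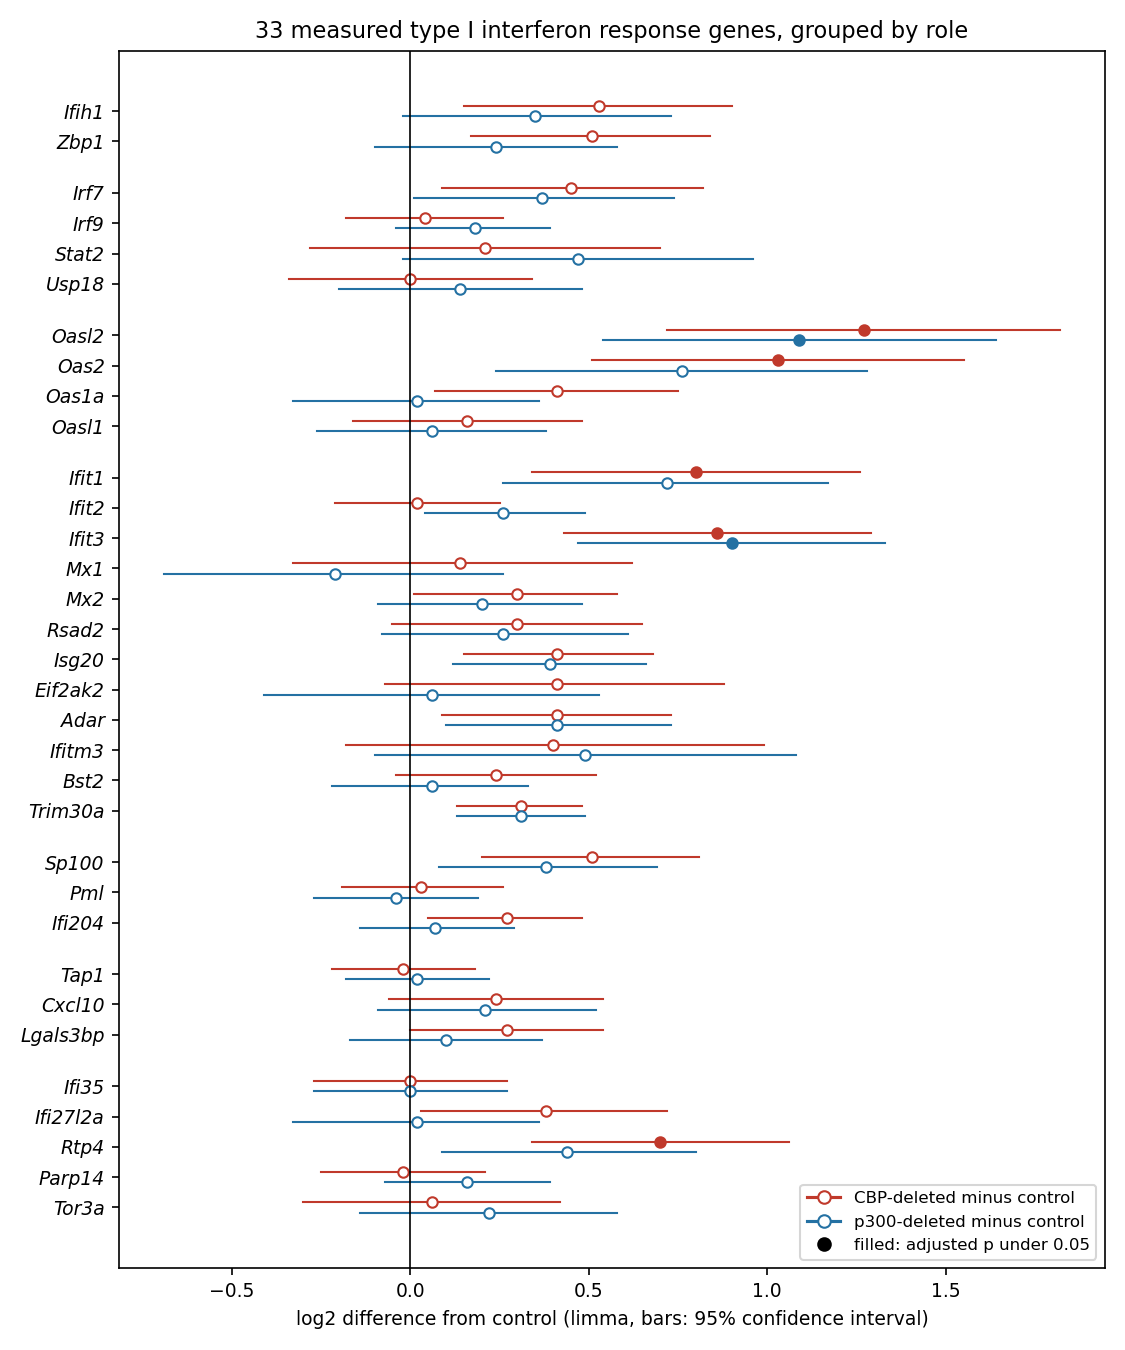
Log2 differences of the 33 measured interferon response genes from the control, grouped by role, with a point and a 95% confidence interval (limma) for CBP-deleted and for p300-deleted cells and filled points for an adjusted p under 0.05. The filled points belong to Oasl2, Oas2, Ifit1, Ifit3 and Rtp4 for CBP-deleted cells and to Oasl2 and Ifit3 for p300-deleted cells, and most other points lie to the right of 0.

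The oligoadenylate synthetase family makes the short oligoadenylates that activate the RNA-degrading enzyme RNase L. Of its 4 measured members 2 rose with CBP deleted and 1 with p300 deleted, beside 2.14% and 2.02% of all genes higher, with median log2 differences of 0.72 and 0.41. Oasl2, an oligoadenylate synthetase-like protein, read 6.44, 6.23 and 6.41 in CBP-deleted, 5.74, 6.15 and 6.64 in p300-deleted and 5.64, 4.99 and 4.63 in control cells. All 6 deleted arrays lay above the highest control, and the controls spread over about as wide a range as the p300-deleted arrays. The means were 6.36 ± 0.12, 6.17 ± 0.45 and 5.09 ± 0.51 (SD, n = 3 each). The log2 difference from the control was 1.27 (SE 0.25, 2.41-fold, limma adjusted p = 0.0196) with CBP deleted and 1.09 (SE 0.25, adjusted p = 0.0365) with p300 deleted.

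Oas2, another synthetase of the family, read 7.28, 7.13 and 7.37 in CBP-deleted, 6.82, 6.94 and 7.22 in p300-deleted and 6.93, 5.97 and 5.79 in control cells. Control replicate 1 stood about as high as the lowest p300-deleted arrays, so the p300-deleted and control groups overlapped while the CBP-deleted arrays lay clear of the controls and overlapped with the p300-deleted arrays. The difference from the control was 1.03 (SE 0.24, 2.04-fold, adjusted p = 0.0336) in CBP-deleted cells and 0.76 (SE 0.24, adjusted p = 0.104) in p300-deleted cells. Oas1a, which has close paralogs in the mouse, read 8.46, 8.58 and 8.88 in CBP-deleted, 8.13, 8.20 and 8.41 in p300-deleted and 8.43, 8.39 and 7.87 in control cells. It differed from the control by 0.41 with CBP deleted and by 0.02 with p300 deleted, and neither passed (adjusted p = 0.163 and 0.974). Oasl1, which in the mouse restrains translation of Irf7, differed by 0.16 and 0.06.

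The IFIT proteins bind viral RNA and hold back its translation. Ifit1, which recognises RNA that lacks the host's cap methylation, read 8.30, 8.23 and 8.54 in CBP-deleted, 7.83, 8.25 and 8.74 in p300-deleted and 7.82, 7.63 and 7.22 in control cells. All 6 deleted arrays lay above the controls, although p300-deleted replicate 1 and control replicate 1 were almost level. The difference in CBP-deleted cells was 0.80 (SE 0.21, 1.74-fold) with an adjusted p of 0.0499998, directly at the threshold, and the 0.72 in p300-deleted cells did not pass (SE 0.21, adjusted p = 0.0806). Trim30a, just outside the threshold, had an adjusted p of 0.052 in CBP-deleted cells.

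Ifit3, a partner of Ifit1 in human cells, read 7.60, 7.66 and 7.79 in CBP-deleted, 7.31, 7.76 and 8.10 in p300-deleted and 7.20, 6.65 and 6.60 in control cells. The groups did not overlap with the controls in either comparison. The differences were 0.86 (SE 0.20, 1.82-fold, limma adjusted p = 0.0314) with CBP deleted and 0.90 (SE 0.20, adjusted p = 0.0288) with p300 deleted. The mouse has a near-identical copy, Ifit3b, whose signal in this probe set cannot be told apart from that of Ifit3. Ifit2, the neighbouring family member, read 8.28, 8.31 and 8.25 in CBP-deleted, 8.44, 8.45 and 8.69 in p300-deleted and 8.35, 8.34 and 8.09 in control cells. Its CBP-deleted arrays lay within the range of the controls (difference 0.02, adjusted p = 0.936), and the p300-deleted arrays lay above it (0.26, adjusted p = 0.191).

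Rtp4, an interferon-induced chaperone of membrane receptors with antiviral activity, read 9.87, 9.87 and 9.97 in CBP-deleted, 9.28, 9.70 and 9.96 in p300-deleted and 9.37, 9.35 and 8.88 in control cells. The CBP-deleted arrays lay clear of the controls and the p300-deleted arrays overlapped with them. The difference was 0.70 (SE 0.16, 1.63-fold, adjusted p = 0.0339) with CBP deleted and 0.44 (SE 0.16, adjusted p = 0.163) with p300 deleted. A second, dimmer probe set for Rtp4 (mean 4.32) gave 0.15 and -0.02.

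**Figure D2:**
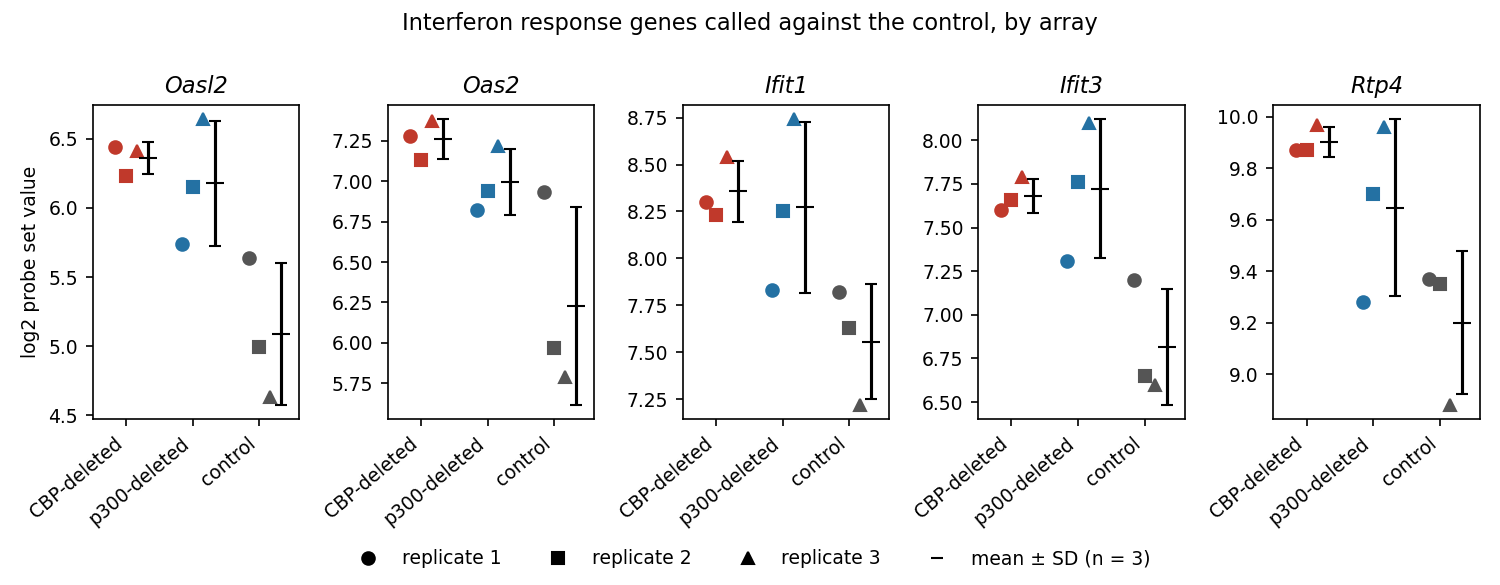
Log2 probe set values of Oasl2, Oas2, Ifit1, Ifit3 and Rtp4 in each array, with 1 point per array, a separate vertical scale for each gene, and CBP-deleted, p300-deleted and control groups from left to right, each with its mean ± SD (n = 3). CBP-deleted arrays sit close together above the controls, control replicate 3 is the lowest point for all 5 genes, and p300-deleted replicate 3 is the highest of its group.

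The bases just before the start of transcription are printed for Ifit1, Ifit3 and Oasl2, 3 of the genes that rose, and for Oas1a and Gbp2b, which were added after their values were seen as a member that did not pass and as a related GTPase that fell. The motif searched on both strands was GAAA, any 2 bases and GAAA again, the core repeat of interferon-stimulated elements, and its matches are in capitals (TTTC, any 2 bases and TTTC where the match lies on the opposite strand). Each run is the 250 bases before the start of the gene, 5′ to 3′ on the gene's strand, from RefSeq in build GRCm38.p6: Ifit1 at chr19:34640639-34640888 and Ifit3 at chr19:34583279-34583528, Oasl2 at chr5:114896684-114896933 and Gbp2b at chr3:142594597-142594846, all on the plus strand, and Oas1a at chr5:120907526-120907775 on the minus strand.
Ifit1: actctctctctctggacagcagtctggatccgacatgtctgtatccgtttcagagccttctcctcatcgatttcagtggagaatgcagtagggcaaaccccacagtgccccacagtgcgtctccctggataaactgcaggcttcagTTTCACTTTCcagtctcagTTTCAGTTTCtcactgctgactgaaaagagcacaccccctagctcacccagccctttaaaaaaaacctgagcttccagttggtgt
Ifit3: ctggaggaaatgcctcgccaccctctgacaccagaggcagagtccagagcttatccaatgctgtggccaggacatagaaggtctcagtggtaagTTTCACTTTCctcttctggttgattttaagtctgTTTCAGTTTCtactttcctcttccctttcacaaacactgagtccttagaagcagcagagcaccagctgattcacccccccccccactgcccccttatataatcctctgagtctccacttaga
Oasl2: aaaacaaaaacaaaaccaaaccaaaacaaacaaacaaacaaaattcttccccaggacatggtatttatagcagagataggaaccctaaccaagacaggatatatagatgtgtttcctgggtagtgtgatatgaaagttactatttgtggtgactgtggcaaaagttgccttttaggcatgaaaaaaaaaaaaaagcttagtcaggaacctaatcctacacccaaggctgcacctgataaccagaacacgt
Oas1a: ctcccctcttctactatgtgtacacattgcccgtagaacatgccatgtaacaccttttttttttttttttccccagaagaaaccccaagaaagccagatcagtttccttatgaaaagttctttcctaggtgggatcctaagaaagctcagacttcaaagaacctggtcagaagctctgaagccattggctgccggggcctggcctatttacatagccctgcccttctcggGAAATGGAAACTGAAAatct
Gbp2b: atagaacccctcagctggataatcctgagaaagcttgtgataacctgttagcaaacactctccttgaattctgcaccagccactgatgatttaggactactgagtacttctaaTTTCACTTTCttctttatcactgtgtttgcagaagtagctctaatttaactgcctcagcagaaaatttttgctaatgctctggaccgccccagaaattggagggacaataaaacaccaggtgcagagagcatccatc

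Ifit1 held 2 matches, starting 104 and 85 bases before the start, and Ifit3 held 2, at 156 and 122 bases. Oas1a held 2 overlapping matches, starting 20 and 14 bases before its start, and Gbp2b held 1 at 137 bases. Oasl2, the gene with the highest log2 difference of the 33, held none in these letters, which says nothing about which factors act there. Over windows of 300 bases, 250 before and 50 after the start, 23 measured interferon response genes had an entry in the table and 11 held the motif (47.8%), against 1079 of 27025 genes (3.99%). The motif was found in 2 of the 3 called genes with an entry and in 9 of the 20 not called (45%), so its presence was not limited to the genes that rose. Oas2 and Rtp4 had no entry.

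The remaining antiviral effectors each gave a small difference that did not pass on its own. Trim30a, which in the mouse dampens inflammatory signalling from Toll-like receptors, read 9.29, 9.26 and 9.30 in CBP-deleted, 9.22, 9.36 and 9.28 in p300-deleted and 9.06, 8.98 and 8.88 in control cells. All 6 deleted arrays lay above the controls, by 0.31 with CBP deleted (SE 0.08, adjusted p = 0.052) and 0.31 with p300 deleted (adjusted p = 0.0535). A second probe set for Trim30a (mean 8.87) gave smaller differences, with all 6 deleted arrays again above the controls. These were 0.14 and 0.23 in a limma fit of every probe set (adjusted p = 0.452 and 0.224). Isg20, an exonuclease of single-stranded RNA, showed the same arrangement, with 9.02, 8.99 and 9.33 in CBP-deleted, 8.95, 9.03 and 9.28 in p300-deleted and 8.73, 8.83 and 8.54 in control cells (differences 0.41 and 0.39, adjusted p = 0.0789 and 0.104). Adar, which edits double-stranded RNA, differed by 0.41 in both (adjusted p = 0.131 and 0.143), its controls reading 7.47, 7.00 and 7.65.

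Eif2ak2, the kinase PKR that halts translation, differed by 0.41 with CBP deleted and 0.06 with p300 deleted, its arrays overlapping in both. Rsad2, the antiviral enzyme viperin, differed by 0.30 and 0.26, and Bst2, which tethers budding virus, by 0.24 and 0.06. Mx2, a dynamin-like GTPase, differed by 0.30 and 0.20, and Mx1, of which C57BL/6 mice carry a defective allele, gave 0.14 and -0.21. Ifitm3, which blocks viral entry by membrane fusion, read 7.00, 7.43 and 8.21 in CBP-deleted, 8.07, 7.27 and 7.56 in p300-deleted and 7.25, 6.91 and 7.26 in control cells. Its highest 2 readings came from CBP-deleted replicate 3 and p300-deleted replicate 1, and the differences of 0.40 and 0.49 did not pass (adjusted p = 0.439 and 0.37).

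Among the nucleic acid sensors, Ifih1, the cytosolic sensor of long double-stranded RNA, read 8.44, 8.55 and 8.63 in CBP-deleted, 7.99, 8.34 and 8.77 in p300-deleted and 8.05, 8.21 and 7.78 in control cells. Its CBP-deleted arrays lay above the controls (0.53, adjusted p = 0.105) and its p300-deleted arrays overlapped with them (0.35, adjusted p = 0.299). Zbp1, a sensor of Z-form nucleic acid that can start necroptosis, had 2 probe sets of nearly equal brightness that gave different calls. The one used, with a mean of 8.50, differed by 0.51 with CBP deleted and 0.24 with p300 deleted (adjusted p = 0.0883 and 0.459). The other, with a mean of 8.46, read 8.73, 8.69 and 8.69 in CBP-deleted, 8.51, 8.70 and 8.84 in p300-deleted and 8.13, 7.73 and 8.16 in control cells. In a fit of every probe set it rose in both, by 0.69 (adjusted p = 0.0218) and 0.68 (adjusted p = 0.0227).

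The factors that carry the interferon signal showed no passing difference. Irf7, which drives interferon alpha genes, read 8.72, 8.65 and 8.73 in CBP-deleted, 8.47, 8.49 and 8.91 in p300-deleted and 8.57, 8.33 and 7.85 in control cells, and differed by 0.45 and 0.37 (adjusted p = 0.147 and 0.258). Irf9, the DNA-binding part of the interferon-activated complex, differed by 0.04 and 0.18, and its partner Stat2 by 0.21 and 0.47 (adjusted p = 0.647 and 0.292). A second, dimmer probe set for Stat2 (mean 5.31) gave 0.51 and 0.71 in a limma fit of every probe set (adjusted p = 0.193 and 0.0933). Usp18, the protease that removes Isg15 and shuts off receptor signalling, differed by 0.00 and 0.14. The nuclear body proteins split, with Sp100 at 0.51 and 0.38 (adjusted p = 0.0598 and 0.151) and Pml at 0.03 and -0.04. The CBP-deleted arrays of Sp100 (8.28, 8.22 and 8.23) all lay above its controls (7.78, 7.40 and 8.04).

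The last members differed little. Ifi204, a DNA-sensing PYHIN protein, read between 2.23 and 2.77 in all arrays, at percentile 3.96 of all genes by mean level. It differed by 0.27 with CBP deleted and 0.07 with p300 deleted. Despite this low signal it counts among the genes whose CBP-deleted arrays all lay above the controls. Tap1, the peptide transporter of antigen presentation, differed by -0.02 and 0.02, the chemokine Cxcl10 by 0.24 and 0.21, and the secreted protein Lgals3bp by 0.27 and 0.10. Ifi27l2a read 11.72, 11.69 and 12.02 in CBP-deleted, 11.24, 11.60 and 11.51 in p300-deleted and 11.55, 11.71 and 11.04 in control cells (differences 0.38 and 0.02). Ifi35 differed by 0.00 in both, the ADP-ribosyltransferase Parp14 by -0.02 and 0.16, and the torsin family ATPase Tor3a by 0.06 and 0.22. By role, the lowest median in CBP-deleted cells was that of the 5 other interferon-induced genes (0.06), although Rtp4 was one of them.

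**Figure D3:**
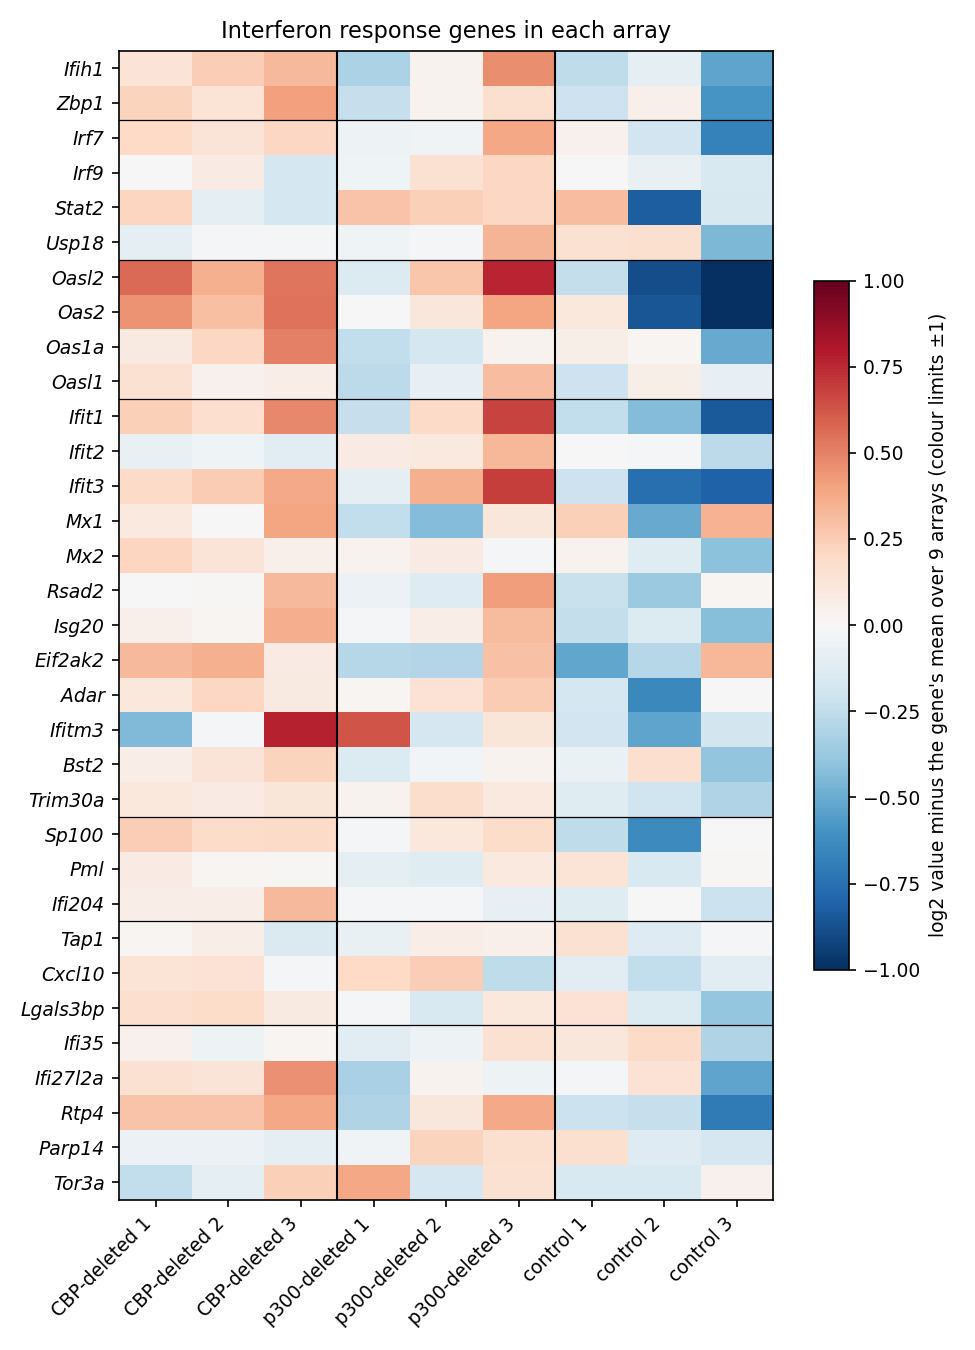
Log2 value of each measured interferon response gene in each array minus that gene's mean over the 9 arrays, with genes in rows by role, arrays in columns from CBP-deleted to p300-deleted to control, and colour limits of ±1 beyond which the colour no longer changes. Oasl2 and Oas2 have the strongest contrast, and the column of control replicate 3 is low for most genes while those of CBP-deleted replicate 3 and p300-deleted replicate 3 are high.

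Variation within a group ran through the interferon response genes together. Their median deviation from each gene's mean was 0.11, 0.12 and 0.21 in the CBP-deleted arrays, -0.05, 0.04 and 0.18 in the p300-deleted arrays and -0.11, -0.15 and -0.30 in the controls, while the same median over all genes lay between -0.02 and 0.04. The CBP-deleted arrays were thus close to each other, and the p300-deleted arrays ran from a value next to the controls up to one next to the CBP-deleted arrays. Control replicate 3 was the lowest control for 21 of the 33 genes and for all 5 called genes. In the p300-deleted group replicate 3 was the highest for 23 genes and replicate 1 the lowest for 22, again including all 5 called genes.

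The number of calls depended on single arrays. The differences of the 5 called genes in CBP-deleted cells kept their sign in all 20 alternatives. For these genes all CBP-deleted arrays lay above all controls, so leaving out arrays could not reverse the sign. The kept sign is therefore no test of the differences. Without any 1 of the 3 CBP-deleted arrays, 0 of the 33 genes passed in CBP-deleted cells, without p300-deleted replicate 2 there was 1, and without control replicate 1 there were 3. Calls over all genes fell in these runs too, from 611 to 123, 91 and 85 without CBP-deleted replicates 1, 2 and 3. They were 393 without p300-deleted replicate 2 and 130 without control replicate 1. The count of 2 in p300-deleted cells became 0 without CBP-deleted replicate 2, p300-deleted replicate 2 or 3, or control replicate 2, and 1 without CBP-deleted replicate 1 or 3. Over all genes the 503 calls became 264 without CBP-deleted replicate 2 and 65 or 341 without p300-deleted replicate 2 or 3. Without control replicate 2 they were 532, and without CBP-deleted replicate 1 or 3 they were 300 or 349. Without control replicate 3, the lowest control, the differences in CBP-deleted cells were 1.04 for Oasl2 (adjusted p = 0.0238), 0.81 for Oas2 (0.051), 0.63 for Ifit1 (0.0871), 0.76 for Ifit3 (0.0485) and 0.54 for Rtp4 (0.0491). Over all 20 alternatives the differences ranged from 0.94 to 1.55 for Oasl2, 0.61 to 1.38 for Oas2, 0.62 to 0.93 for Ifit1, 0.64 to 1.06 for Ifit3 and 0.43 to 0.78 for Rtp4. The adjusted p ranged from 0.0151 to 0.0773 for Oasl2, 0.00331 to 0.161 for Oas2, 0.0316 to 0.189 for Ifit1, 0.0194 to 0.124 for Ifit3 and 0.0131 to 0.129 for Rtp4.

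Signs of other cells and of RNA quality also moved between arrays. The summed linear signal of 6 neutrophil markers was 509, 493 and 4050 in CBP-deleted, 2540, 519 and 1060 in p300-deleted and 321, 159 and 356 in control arrays, so that every deleted array exceeded every control. None of the 6 passed in CBP-deleted cells at the limma threshold and 1, Camp, passed in p300-deleted cells. CBP-deleted replicate 3 and p300-deleted replicate 1 had the most of this signal, and a run without both was added after seeing the data. There the median difference of the interferon response genes in CBP-deleted cells was 0.29 and 0 genes passed. Calls over all genes fell from 611 to 100, and leaving out any 1 CBP-deleted array also gave 0. This 0 is therefore no test of the neutrophil signal. With p300 deleted, 3 of the 33 genes passed in this run, beside 2 with all arrays. The summed signal of 6 markers of plasmacytoid dendritic cells, a main source of interferon alpha, was 874 to 896 in CBP-deleted, 838 to 1150 in p300-deleted and 844 to 1150 in control arrays. The brightest, Pacsin1 and Ccr9 (means 8.69 and 8.41), weigh most in this sum. In CBP-deleted arrays Spib, Tcf4 and Bcl11a lay below all controls (-0.96, -0.46 and -0.43), beside 14.5% of all genes, and the other markers overlapped. In p300-deleted arrays Spib and Bcl11a lay below all controls (-0.97 and -0.28) and Cox6a2 above them (0.21), beside 11.5% and 8.76% of all genes. Only Spib passed at the limma threshold, in each deletion.

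Both CD8 T cell markers were measured, with a summed linear signal of 177, 168 and 198 in CBP-deleted, 125, 145 and 153 in p300-deleted and 111, 115 and 120 in control arrays, without overlap between any of the groups. Of the 2, Cd8b1 rose in CBP-deleted cells (0.74, limma adjusted p = 0.00847) and did not pass in p300-deleted cells (0.32, adjusted p = 0.161), and Cd8a differed by 0.03 and 0.10. Of 6 measured B cell markers 3 were lower in CBP-deleted cells, beside 2.79% of all genes. In p300-deleted cells 4 of 5 plasma cell markers, 4 of 5 mast cell and basophil markers and 1 of 5 NK cell markers (Ncr1, 1.43, adjusted p = 0.0425) were higher, beside 2.02% of all genes. The log2 difference between the 5′ and 3′ control probe sets of Gapdh, a measure of RNA integrity and amplification, was 0.15, 0.00 and -0.11 in CBP-deleted, -0.11, -0.17 and -0.06 in p300-deleted and -0.25, -0.60 and -0.20 in control arrays, without overlap between either deleted group and the controls. The same measure for actin overlapped among the groups, at -0.47 to -0.28, -0.41 to -0.29 and -0.44 to -0.28. The part of other cells and of RNA quality in the interferon response differences was not tested.

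**Figure D4:**
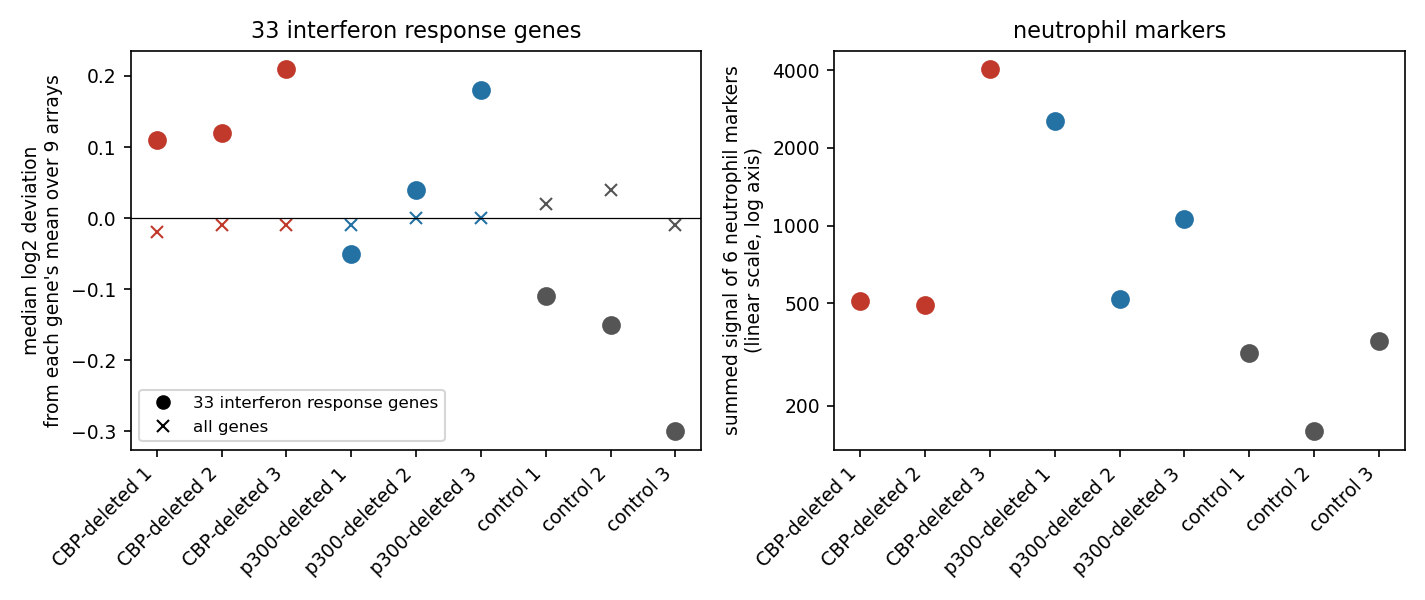
Left, the median log2 deviation of the 33 interferon response genes (circles) and of all 12393 genes (crosses) in each array, and right, the summed linear signal of 6 neutrophil markers on a log axis, with CBP-deleted, p300-deleted and control arrays from left to right. The circles of the controls lie at -0.11 to -0.30 below those of the CBP-deleted arrays at 0.11 to 0.21, and the neutrophil signal of 4050 in CBP-deleted replicate 3 and 2540 in p300-deleted replicate 1 stands above the rest.

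CBP-deleted and p300-deleted cells were next compared with each other. The control means do not enter these differences, but the control arrays still enter the estimate of the spread. With limma 0 of the 33 interferon response genes passed, beside 5.2% of all genes (3.2% higher and 2.01% lower in CBP-deleted cells), and 3 passed at an unadjusted p under 0.05 (9.09%, against 18.3% of all genes). The median log2 difference of CBP-deleted from p300-deleted cells was 0.08 (range -0.26 to 0.39), with 22 genes above 0 and 11 below. The 5 genes called against the control differed by 0.18 for Oasl2 (95% interval -0.37 to 0.74), 0.27 for Oas2 (-0.26 to 0.79), 0.08 for Ifit1 (-0.37 to 0.54), -0.04 for Ifit3 (-0.47 to 0.39) and 0.26 for Rtp4 (-0.10 to 0.62). All 5 intervals hold 0, but they also reach 0.39 or more on the log2 scale, so these data do not show that the 2 deletions act alike.

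Oas1a had the highest difference between the deletions, at 0.39 (adjusted p = 0.203), and all 3 of its CBP-deleted arrays lay above all 3 p300-deleted arrays. Ifit2 went the other way, at -0.24 (adjusted p = 0.234), again without overlap. Arrays failed to overlap with CBP-deleted above p300-deleted for 5 of the 33 genes and below for 2, beside 15.8% and 14.4% of all genes.

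Other genes of the interferon pathway were set beside these, 45 measured of 59 listed, and 11 of 17 GTPases that are known for induction by interferon gamma and that act against intracellular pathogens. In CBP-deleted cells 0 of the 45 pathway genes passed with limma, beside 4.93% of all genes, and 13 did at an unadjusted p under 0.05 (28.9%, against 20.4% of all genes). Their median difference was -0.12, beside 0.30 for the response genes. In p300-deleted cells 1 of the 45 rose (2.22%, beside 2.02% of all genes), the phosphatase gene Ptpn11 (8.95, 9.10 and 8.95 against 8.63, 8.57 and 8.75 in control cells, difference 0.35, adjusted p = 0.0481). With the mean of all its probe sets that difference was -0.03 (adjusted p = 0.929; over the alternatives it ran from 0.0191 to 0.929).

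Of the ligands, Ifnb1, the gene of interferon beta, read 2.93, 3.21 and 3.35 in CBP-deleted, 3.32, 3.25 and 3.10 in p300-deleted and 3.20, 3.58 and 3.60 in control cells, and did not pass in either deletion (differences -0.29 and -0.24, adjusted p = 0.273 and 0.428). Ifng, the gene of interferon gamma, differed by -0.53 and -0.21 (adjusted p = 0.315 and 0.758). Of the receptor chains, Ifnar1 read 7.52, 7.63 and 7.43 in CBP-deleted, 7.68, 7.70 and 7.63 in p300-deleted and 8.11, 8.08 and 7.66 in control cells, and differed by -0.43 and -0.28 (adjusted p = 0.0709 and 0.242). Ifnar2 differed by 0.29 and 0.30 (adjusted p = 0.145 and 0.159). The kinase genes Jak1, at -0.47 and -0.36, and Tyk2, at -0.28 and -0.14, did not pass, and neither did the interferon regulatory factors Irf1 (-0.42 and 0.06, adjusted p = 0.064 and 0.842) and Irf3 (-0.16 and -0.05) or the feedback inhibitor Socs1 (0.17 and 0.50, adjusted p = 0.561 and 0.0749).

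Among the GTPases, Gbp2b, a guanylate-binding protein, fell in both deletions. It read 4.71, 4.77 and 4.57 in CBP-deleted, 5.27, 4.92 and 5.48 in p300-deleted and 6.18, 6.45 and 5.72 in control cells, with no overlap between any of the groups. The difference was -1.43 (SE 0.19, limma adjusted p = 0.00311) with CBP deleted and -0.89 (SE 0.19, adjusted p = 0.0262) with p300 deleted, and Gbp2b was the 1 GTPase of 11 that passed in CBP-deleted cells (9.09%, beside 4.93% of all genes). Its promoter, printed above, holds the same 10 letters as one of the matches in Ifit1 and Ifit3, genes that rose. In p300-deleted cells 3 of the 11 passed (27.3%, beside 4.06% of all genes), Gbp2b and 2 GTPases that rose. These were Iigp1, which read 9.30, 9.42 and 9.63 against 8.67, 8.48 and 8.41 in control cells (difference 0.93, SE 0.14, adjusted p = 0.00819), and Gbp6 (0.66, SE 0.11, adjusted p = 0.0112). Under the 20 alternatives Gbp2b passed in CBP-deleted cells in 20 and in p300-deleted cells in 13, and Iigp1 passed in p300-deleted cells in 20. Over the GTPases and other pathway genes together, the count of 1 in CBP-deleted cells became 5 without control replicate 2 and 7 without control replicate 3, and the count of 4 in p300-deleted cells became 1 without p300-deleted replicate 2 and 2 without control replicate 1. Calls over all genes in these runs were 893 and 1131 (beside 611), and 65 and 208 (beside 503).

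Between the deletions, 8 of these 56 genes passed, 5 of the 45 pathway genes (11.1%) and 3 of the 11 GTPases (27.3%), beside 5.2% of all genes. One of the 8 was higher and the others were lower in CBP-deleted cells, beside 3.2% of all genes higher and 2.01% lower. Ifngr1, a receptor chain for interferon gamma, read 9.76, 9.83 and 9.74 in CBP-deleted cells and 9.09, 9.17 and 9.27 in p300-deleted cells, 0.59 higher in CBP-deleted cells (adjusted p = 0.0141). The 7 genes that were lower in CBP-deleted cells were Irf1 (-0.48, adjusted p = 0.0344), the cytokine signalling inhibitor Socs3 (-0.55, 0.0365), the phosphatase Ptpn6 (-0.36, 0.0435), the receptor chain Il10rb (-0.31, 0.0436) and the GTPases Irgm2 (-0.58, 0.0109), Gbp8 (-0.59, 0.0152) and Gbp6 (-0.48, 0.0326). Irf1 read 10.04, 9.97 and 9.60 in CBP-deleted cells and 10.41, 10.45 and 10.19 in p300-deleted cells, without overlap. The count of 8 became 0 without p300-deleted replicate 2, 1 without CBP-deleted replicate 2 or p300-deleted replicate 1, 2 without CBP-deleted replicate 3, and 4 without CBP-deleted replicate 1 or p300-deleted replicate 3. Over all genes the 645 calls became 372, 212 and 298 without CBP-deleted replicates 1, 2 and 3. Without p300-deleted replicates 1, 2 and 3 they were 336, 287 and 426.

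**Figure D5:**
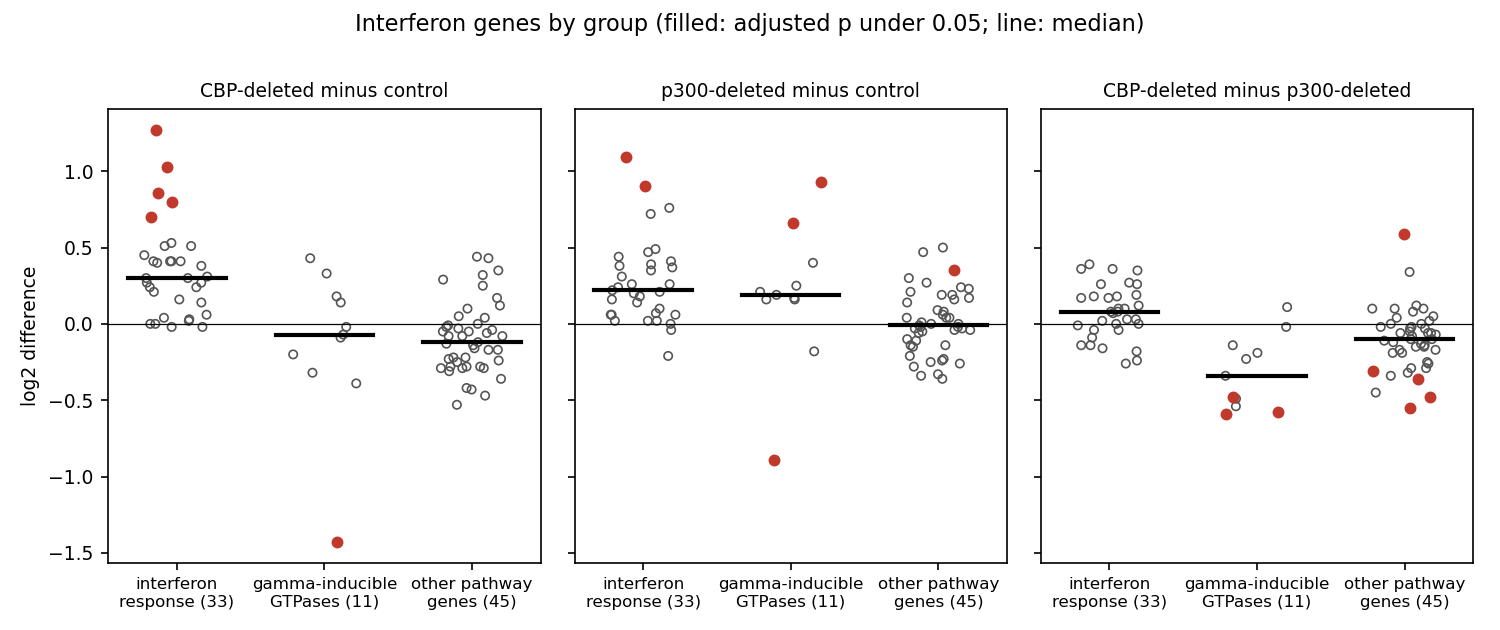
Log2 differences of the 33 interferon response genes, the 11 gamma-inducible GTPases and the 45 other pathway genes in each of the 3 comparisons, with 1 point per gene, filled points for an adjusted p under 0.05 and a line at the median. In CBP-deleted against control cells the response genes have a median of 0.30, the GTPases -0.07 and the other pathway genes -0.12, and in p300-deleted against control cells the medians are 0.22, 0.19 and -0.01.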

How the data were processed

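Each sample was a single-channel Affymetrix 3′ array. The deposited values are log2 levels, 1 per probe set and array, summarised with RMA per the submitters' processing notes; its settings are not given in the sources used here. They were used as deposited (array medians 5.49 to 5.59). Of 22690 probe sets, 64 controls were set aside, 20380 of the rest had 1 gene symbol, and the probe set with the highest mean represented each of 12393 genes. Symbols were matched to RefSeq GRCm38.p6, without a match for 29.

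All genes were fitted in R 4.3.3 and limma 3.58.1 (a mean for each group, 6 residual degrees of freedom, empirical Bayes with a mean trend, two-sided, Benjamini-Hochberg over all genes at 0.05) and tested on simulated data. An exact permutation of 3 against 3 arrays cannot go below 0.1. SE are from the fit, SD over 3 arrays. The members, lists and tests were chosen with earlier results of these data known. Named were all members, every other listed interferon gene that passed, and 8 further ligand and signalling genes whether or not they passed. In all 20 alternatives were run: leaving out each of 9 arrays, 10 other settings, and 1 added after seeing the data that leaves out the 2 arrays with most neutrophil signal.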

Additional observations from a re-analysis of the deposited data

How the results depend on the processing

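Over 20 alternatives the median difference of the 33 interferon response genes stayed above 0 against the control, at 0.25 to 0.39 in CBP-deleted and 0.16 to 0.26 in p300-deleted cells, and lay between -0.02 and 0.17 between the deletions. Counts of calls depended on the settings, and the cause was not tested. Calls over all genes moved as well, in CBP-deleted cells from 611 to 85 without CBP replicate 3 and 1755 with array weights. In p300-deleted cells they went from 503 to 65 without p300 replicate 2 and 1028 with array weights. Between the deletions they went from 645 to 212 without CBP replicate 2 and 1467 with array weights. Of the response genes, 5 passed in CBP-deleted cells, and 0 to 6 when single arrays were left out, 2 with every probe set on its own, 11 with array weights and 0 without CBP replicate 3 and p300 replicate 1 together. In p300-deleted cells 2 passed, 0 to 3 without single arrays, 1 with every probe set and 0 with only the 2 groups compared. Without the 2 arrays together 3 passed. Between the deletions 0 passed in all 20. Of the GTPases and other pathway genes 1 passed in CBP-deleted cells, 1 to 7 without single arrays, 3 without the dimmest genes and 13 with array weights. In p300-deleted cells 4 passed, 1 to 6 without single arrays, 2 with only the 2 groups compared and 2 without the 2 arrays together. Between the deletions 8 passed, 0 to 10 without single arrays, 5 with every probe set, 5 with array medians subtracted, 4 with no trend, 13 with array weights and 1 without the 2 arrays together. Deviations from the group means correlated at -0.23 to 0.27 between same-numbered arrays of different groups and at -0.19 to 0.26 between different-numbered ones. With 3 arrays per group this cannot decide whether the replicate numbers pair the samples. With the replicate block 1 response gene passed with CBP deleted and 0 with p300 deleted, and 4 other genes between the deletions. Ptpn11 in p300-deleted cells was -0.03 with the mean of all probe sets.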
